A study of Homo sapiens with 8 samples.

Results

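Splicing factor and heterogeneous nuclear ribonucleoprotein (hnRNP) genes carried 198 of the 22626 peaks of N6-methyladenosine (m6A) analysed here, on 92 genes. The members are the peaks whose gene symbol starts with HNRNP, SRSF, SF3A, SF3B, SNRP, PRPF, U2AF, RBM and a digit, or RBMX. RBM15 and RBM15B, which belong to the m6A writer complex (5 peaks), and 28 pseudogene peaks were left out. The libraries came from HCT116, a human colorectal cancer cell line. The 4 groups were m6A immunoprecipitates (IP) and unselected input of cells with a stable short hairpin RNA against ALKBH5 (shALKBH5), and IP and input of cells with a control hairpin (shNC, genotype labelled WT), with 2 libraries each. All groups share the parental line and a hairpin vector, and the sample titles show 1 hairpin against ALKBH5, an m6A demethylase. The sources used here do not say whether each line is a clone or a pool, or whether its 2 libraries came from separate cultures.

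The spliceosome is built from small nuclear ribonucleoproteins (snRNPs) and many further proteins, which mark the ends of each intron and then remove it. The U1 snRNP reads the upstream splice site, U2AF the downstream one, and the U2 snRNP with its SF3A and SF3B complexes the branch point. SR proteins and hnRNPs bind exons and introns and promote or block the use of nearby splice sites. Several of these proteins are also tied to m6A itself: HNRNPC and RBMX bind RNA whose structure methylation has opened, and HNRNPA2B1 has been described as a nuclear reader of the mark. Here their own transcripts are the subject.

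The values are those of 1 peak list for the whole series, so no value has a replicate error and library depth is unknown. Enrichment of IP over input and the p of a peak are the authors' own, and a more negative log10 p means a more significant peak. The log2 fold compares the 2 arms, and its numerator is not stated, so folds are given as positive or negative, with no direction for shALKBH5 cells. The sources used here do not say whether the fold takes transcript level into account, so a difference in m6A and a difference in the amount of the transcript cannot be told apart. A called peak is one with a false discovery rate (FDR) under 0.05 per the authors' deposited table. Of 6 colorectal epithelium markers 4 (EPCAM, KRT8, KRT18 and CDH1) had a peak, against 1 of 4 fibroblast and 1 of 4 leukocyte markers.

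Peaks at the first exon are shown as sequence first, since 5 of the called peaks of these genes reach the RefSeq window around the annotated start. The window holds 250 bases before the start and 50 from it. Below are 60 bases before and 30 from the annotated start of those 5 genes (RefSeq, GRCh38.p14), 5′ to 3′ on the coding strand, with the bases inside the deposited peak in capitals.
HNRNPA2B1, chr7:26200717-26200806, minus strand: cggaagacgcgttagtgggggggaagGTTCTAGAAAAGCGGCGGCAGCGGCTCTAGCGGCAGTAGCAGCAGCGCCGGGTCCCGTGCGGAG
HNRNPC, chr14:21269413-21269502, minus strand: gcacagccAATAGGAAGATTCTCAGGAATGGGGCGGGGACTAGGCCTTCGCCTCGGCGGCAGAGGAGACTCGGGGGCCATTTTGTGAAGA
U2AF2, chr19:55654975-55655064, plus strand: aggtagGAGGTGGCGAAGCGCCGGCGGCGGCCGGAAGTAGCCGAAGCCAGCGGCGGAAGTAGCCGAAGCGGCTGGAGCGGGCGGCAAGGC
SF3B5, chr6:144095544-144095633, minus strand: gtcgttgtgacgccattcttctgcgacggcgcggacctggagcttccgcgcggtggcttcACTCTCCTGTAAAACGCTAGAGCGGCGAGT
SNRPA, chr19:40751143-40751232, plus strand: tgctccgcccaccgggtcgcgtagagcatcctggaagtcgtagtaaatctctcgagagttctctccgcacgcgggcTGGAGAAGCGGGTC
The HNRNPA2B1, HNRNPC and U2AF2 peaks run 34, 52 and 54 bases past the annotated start into the upstream side. The SF3B5 peak ends on the start base itself, and the SNRPA peak begins within the first exon.

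In all, 24 peaks on 23 of these genes had bases in a start window, and 5 of them (20.8%) were called, where 8.23% of all peaks in the list were. Of all 711 peaks with bases in the start window of their gene, 62 (8.72%) were called. The members' log2 folds per the authors' deposited table ran between -0.61 and 3.12 with a median of 0.46, and 20 of the 24 (83.3%) were positive, against 58.2% of all peaks in start windows. Of these peaks 15 covered the annotated start base, at 14 distinct starts, since RBM14 and the read-through gene RBM14-RBM4 share one. The annotated first base was A at 11 of the 14 starts, HNRNPA2B1, HNRNPC, U2AF2 and SF3B5 among them. Where transcription starts in these cells was not mapped. Of the 24 peaks in start windows 18 hold bases before the annotated start, so that base need not be the first one transcribed. Per gene, the annotated base was A in 12 of 15 member genes with a peak on it (80.0%), against 26 of 65 members without one (40.0%). Over the whole list A came first in 255 of 451 genes with a peak on the start base (56.5%), and in 45.2% of 7761 genes whose peaks lie elsewhere. Antibodies against m6A also bind its relative at the cap, N6,2′-O-dimethyladenosine, which forms where transcription starts with A, and its part in these peaks was not tested. The letters GGACT, the commonest form of the m6A motif, stood on either strand in 40 of 80 member windows (50%) and in 44.2% of 27305 windows of all genes. Most of each window lies before the start, and windows counted with or without a peak, so this does not place sites within the peaks.

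Of the 198 member peaks 31 were called (15.7%), where 8.23% of all peaks in the list were called. Positive folds made up 25 of these calls (12.6% of member peaks, against 5.74% of all peaks), and negative folds 6 (3.03%, against 2.49% of all peaks). The calls fell on 27 of the 92 genes (29.3%), where 13.7% of all 12009 genes with a peak had a called one. Member genes carried 2.15 peaks each on average, SF3 genes 2.5 and hnRNP genes 2.71, against 1.88 over all genes. A gene with more peaks has more that could be called, and the part of this in the gene shares was not tested. No gene had called peaks of both signs, but only 4 genes had 2 called peaks, so this says little. The median log2 fold per the authors' deposited table was 0.25 over member peaks and 0.14 over all peaks, and 129 member folds (65.2%) were positive, against 55.3% of all. With the most significant peak of each gene alone, the medians were closer, at 0.19 for members and 0.14 for all genes. At an FDR under 0.01, 16 member peaks were called (8.08%, against 4.95% of all peaks). Positive ones were 14 (7.07% of member peaks, against 3.61% of all peaks) and negative ones 2 (1.01%, against 1.35%). Whether the deposited p is one-sided is not stated, and with every p doubled 22 member peaks were called (11.1%, against 6.36%). Of these, 19 were positive (9.6% of member peaks, against 4.57% of all peaks) and 3 negative (1.52%, against 1.78%). With the folds centred on the median of all peaks, 26 member peaks were called (13.1%, against 7.8%). There, 18 were positive (9.09% of member peaks, against 4.13% of all peaks) and 8 negative (4.04%, against 3.67%). The p alone was under 0.05 for 56 member peaks (28.3%) and for 19.9% of all peaks.

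**Figure D1:**
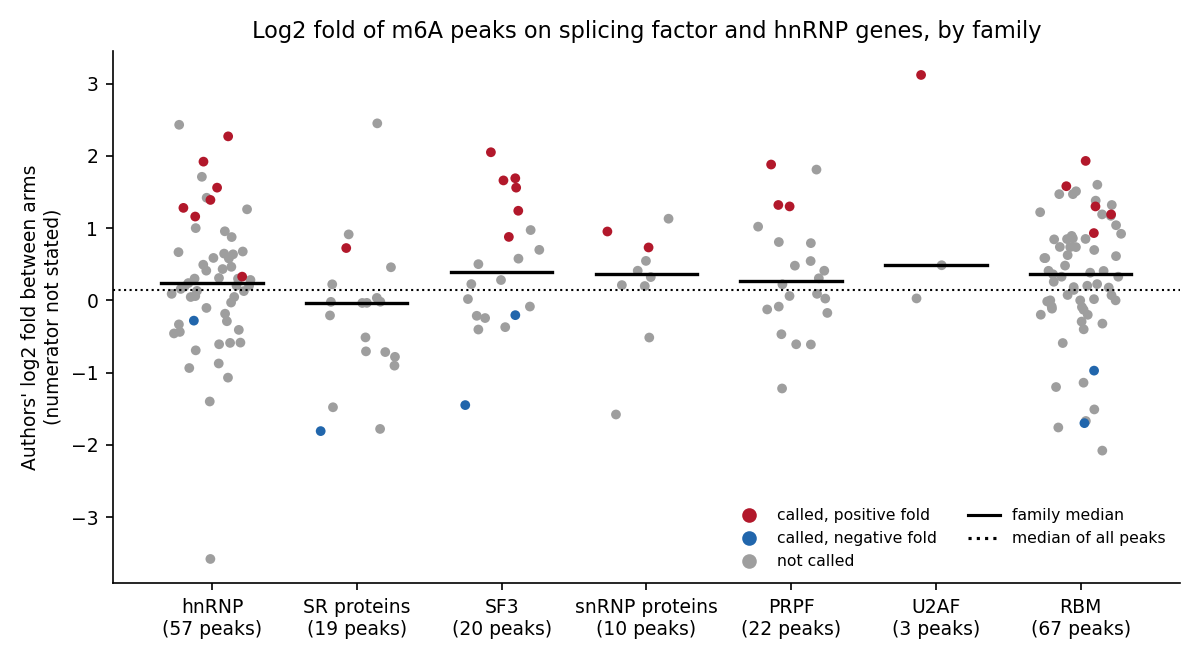
Each point is 1 m6A peak, with the authors' log2 fold between the arms on the y axis and the 7 families on the x axis; bars are family medians and the dotted line is the median of all 22626 peaks (0.14). The SF3 family has 8 of 20 peaks called, 6 positive and 2 negative, and the SR family median (-0.04) lies below the dotted line.

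The SF3 complexes, which hold the U2 snRNP on the branch point, had 8 of 20 peaks called (40.0%, against 8.23% of all peaks), on 7 of 8 genes (87.5%, against 13.7% of all genes). SF3B2 had 4 peaks, and the last of them, 510 bases from the annotated 3′ end (chr11:66068649-66068948), had a log2 fold of 1.56 and an FDR of 3.5e-08 per the authors' deposited table, the smallest of any member. It was also the weakest SF3B2 peak, at 2.09-fold enrichment and a log10 peak p of -8.47. The 3 others stood at 0.23, 0.97 and 0.50 per the authors' deposited table, with FDRs of 0.31, 0.13 and 0.053, so all 4 folds had one sign and 1 passed.

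SF3B3, the scaffold subunit beside SF3B1, had both of its peaks called. The one at 9.8% of the gene (chr16:70528936-70530750, 2 exon blocks) stood at 2.05 (FDR 3.0e-07) per the authors' deposited table, and the one at 89.3% of the gene at 0.88 (FDR 0.027). The second call did not hold with p doubled (FDR 0.053) or with folds recentred (FDR 0.076). SF3B6, a small subunit that contacts the branch-point adenosine, had a peak 133 bases from the 3′ end at 1.24 (FDR 4.2e-05) per the authors' deposited table, and a second at the start of the gene at -0.09 (FDR 0.63).

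SF3B1, the subunit that clamps the branch-point helix, had 5 peaks with log2 folds of 0.70, 1.69, 0.28, -0.25 and 0.02 per the authors' deposited table, listed from the 3′ end upwards. The peak at 1.69 (chr2:197396071-197396220, FDR 0.012) was the called one, and it was weak, at 1.96-fold enrichment. SF3A1, which links the complex to U1 and U2 RNA, had 1 called peak of 3, at 1.66 (FDR 0.0019), with the others at -0.37 and -0.40 per the authors' deposited table.

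The negative SF3 calls were on SF3A2 and SF3B5, which encode further subunits of the complexes. SF3A2 stood at -1.45 (FDR 0.045) per the authors' deposited table, beside an uncalled peak of 0.58. The SF3B5 peak covered 690 bases, the whole of that single-exon gene, and was among the most significant of all members (log10 peak p of -480). Its fold was small, at -0.21 (FDR 0.031) per the authors' deposited table. Neither call held with p doubled, where the FDRs were 0.090 and 0.062. SF3B4 had 1 strong uncalled peak, at 13.8-fold enrichment and a log2 fold of -0.21 per the authors' deposited table.

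U2AF2, the large U2AF subunit that binds the pyrimidine tract, had the largest fold of any called member. Its peak across the first exon junction (chr19:55654981-55658898, 210 exonic bases) had a log2 fold of 3.12 (FDR 0.019) per the authors' deposited table, with 4.97-fold enrichment and a log10 peak p of -7.3. A far stronger U2AF2 peak (32.7-fold, log10 peak p of -76.1) lies wholly upstream of the annotated start, at chr19:55654176-55654802, and stood at 0.03 per the authors' deposited table. The third, 671 bases from the 3′ end, stood at 0.49 (FDR 0.445) per the authors' deposited table. None of the member peaks analysed here carried the symbol of the small subunit gene, U2AF1.

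Of the snRNP protein genes, 2 of 7 had a called peak (28.6%, against 13.7% of all genes), both positive. SNRPA, the U1 protein that binds a stem loop of U1 RNA, stood at 0.95 (FDR 0.0081) per the authors' deposited table, with its peak over the first exon junction. SNRPD3, a protein of the Sm ring, had a called peak at 0.73 (FDR 0.029) per the authors' deposited table, between uncalled ones of 0.20 and -0.52. The SNRPD3 peak shares bases with a peak of an unnamed gene on the same strand at 0.72 per the authors' deposited table, so the 2 are not separate evidence, and its call did not hold with p doubled (FDR 0.058) or recentred (FDR 0.094). Peaks of SNRPB2, SNRPD1, SNRPD2, SNRPE and SNRPG were uncalled, and the 8 uncalled peaks of the family ran between -1.58 and 1.13 per the authors' deposited table.

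Of the PRPF genes, which encode parts of the U4/U6.U5 particle and factors that activate the spliceosome, 2 of 12 had called peaks (16.7%, against 13.7% of all genes), with 3 calls among 22 peaks (13.6%, against 8.23% of all peaks). The gene share is near that of the whole list, and the higher peak share rests on those 3 calls. PRPF8, the large protein at the catalytic centre, had 2 peaks and both were called. They stood at 1.30 (FDR 6.6e-08) and 1.32 (FDR 0.0096) per the authors' deposited table, at 30.0% and 8.5% of the gene length, so the 2 folds were close although the peaks lie apart. PRPF3, a U4/U6 protein, had a 3-block peak at 1.88 (FDR 0.032) per the authors' deposited table, lost with p doubled (FDR 0.063) or recentred (FDR 0.053). PRPF38A held one of the most enriched peaks, at 57.4-fold, and stood at 0.79 (FDR 0.67) per the authors' deposited table.

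SR proteins had 2 of 19 peaks called (10.5%, near the 8.23% of all peaks), 1 of each sign. SRSF2, which binds exonic enhancers, had 1 peak, at -1.81 (FDR 0.0023) per the authors' deposited table. The SRSF2 peak shares bases with a called peak of MFSD11 on the opposite strand at -1.69 (FDR 0.013) per the authors' deposited table. The sources used here do not say whether counting used strand, so which of the 2 genes the fold belongs to is uncertain. SRSF9 stood at 0.72 (FDR 0.034) per the authors' deposited table, a call lost with p doubled (FDR 0.068) or recentred (FDR 0.11).

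Among the other SR genes the strongest peaks had folds near 0. SRSF5 had a peak at a log10 p of -277 with a log2 fold of -0.04 per the authors' deposited table, and SRSF6 had one at -137 with a fold of -0.02. SRSF4 had one at -134 with a log2 fold of -0.02 per the authors' deposited table. SRSF10, which represses splicing when dephosphorylated, had 3 peaks, at -1.78, -0.78 and -0.51 per the authors' deposited table, each negative and uncalled (FDRs of 0.42, 0.58 and 0.48). SRSF3, an export adaptor that the m6A reader YTHDC1 recruits, had the lowest enrichment of all members, at 1.46-fold. It stood at -0.90 (FDR 0.096) per the authors' deposited table, and was called once folds were recentred (FDR 0.049). SRSF8 had 3 uncalled peaks between -1.48 and 0.22 per the authors' deposited table. SRSF1 and SRSF11 had 1 uncalled peak each, at 0.91 and -0.03 per the authors' deposited table, and no member peak analysed here carried the symbol SRSF7.

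Of the hnRNP genes, 7 of 21 had a called peak (33.3%, against 13.7% of all genes), with 8 calls among 57 peaks (14.0%, against 8.23% of all peaks). HNRNPU, a scaffold attachment protein that also acts in splicing, had the most peaks of any member, 7. From the 3′ end upwards their log2 folds per the authors' deposited table were 0.49, 1.28, 0.59, -0.11, -0.61, 1.16 and 0.46. The called ones per the authors' deposited table were those at 1.28 (FDR 0.011) and 1.16 (FDR 3.8e-06), and the most significant HNRNPU peak, at the start of the gene, was not called (FDR 0.25). HNRNPUL2, a related gene, had the largest fold among called hnRNP peaks, at 2.27 (FDR 4.2e-05) per the authors' deposited table, on a 12.3-fold enriched peak at chr11:62714748-62715136. Its 4 other peaks ran between -0.69 and 0.28 per the authors' deposited table, and 3 of them overlap uncalled peaks listed under the read-through gene HNRNPUL2-BSCL2.

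The m6A-linked HNRNPA2B1 and HNRNPC each had 1 called peak, in both cases the one over the annotated start shown above. For HNRNPA2B1 it stood at 1.92 (FDR 0.025) per the authors' deposited table, and the 5 others ran between -0.33 and 1.26 with FDRs of at least 0.387 per the authors' deposited table. The called HNRNPA2B1 peak was a weak one, at 1.99-fold and a log10 peak p of -3.18. For HNRNPC the peak at the start stood at 1.56 (FDR 0.0066) and the others at 0.68 and -0.44 (FDRs of 0.20 and 0.41) per the authors' deposited table. RBMX, the third protein of this kind, had 1 peak, at -0.08 (FDR 0.65) per the authors' deposited table.

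Other called hnRNP peaks were on HNRNPD, HNRNPF and HNRNPA0. HNRNPD, the AU-rich element binding protein AUF1, stood at 1.39 (FDR 0.0098) per the authors' deposited table, on a peak of 4 exon blocks. HNRNPF, which binds G tracts, stood at 0.33 (FDR 0.0066) per the authors' deposited table, on the most significant peak of all members (log10 peak p of -605), and did not pass once recentred (FDR 0.17). HNRNPA0 had a strong peak at -0.28 (FDR 0.031) per the authors' deposited table and a weaker one at 0.67 (FDR 0.051). The HNRNPA0 call was lost with p doubled (FDR 0.062). HNRNPA1, HNRNPL, HNRNPM and HNRNPUL1 had no called peak, and no member peak analysed here carried the symbol HNRNPK. The uncalled hnRNP folds ran between -3.58 (HNRNPLL, FDR 0.56) and 2.43 (HNRNPL, FDR 0.17) per the authors' deposited table. Both were on weak peaks, with log10 peak p of -2.39 and -5.59.

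RBM genes, a mixed group named for their RNA recognition motifs, had 7 of 67 peaks called (10.4%, near the 8.23% of all peaks), on 6 of 33 genes (18.2%, against 13.7% of all genes). RBM22, a protein of the activated spliceosome, had 2 peaks in its last part and both were called. They stood at 1.30 (FDR 0.0031) and 1.19 (FDR 0.031) per the authors' deposited table, 269 and 792 bases from the 3′ end. The RBM22 peak at 1.19 was the more enriched, at 21.0-fold, and lost its call with p doubled (FDR 0.062) or recentred (FDR 0.067). RBM7, a subunit of the nuclear exosome targeting complex, stood at 1.93 (FDR 0.018) on a 28.7-fold enriched peak per the authors' deposited table. RBM23 stood at 0.93 (FDR 0.026) per the authors' deposited table, a call lost with p doubled (FDR 0.052) or recentred (FDR 0.070).

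RBMXL1, an intronless copy of RBMX, stood at 1.58 (FDR 0.00033) per the authors' deposited table, beside an uncalled peak at 0.85. Its sequence is close to that of RBMX, so reads may be divided between the 2 genes and both are uncertain. RBM33, an adaptor that has been linked to ALKBH5, had the negative call with the smallest FDR. Its 4-block peak at 26.5% of the gene (chr7:155678611-155701009, 23.1-fold, log10 peak p of -470) stood at -0.97 (FDR 0.0011) per the authors' deposited table. The 3 other RBM33 peaks, from there to the 3′ end, stood at 0.20, 0.41 and 0.74 per the authors' deposited table, with FDRs of at least 0.579. RBM12B had a called peak at -1.70 (FDR 0.018) per the authors' deposited table, 195 bases from its 3′ end. It shares bases with a called peak of CIBAR1 on the opposite strand at -1.56 per the authors' deposited table, so its gene is uncertain as well.

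Uncalled RBM peaks were 4 of the 5 most enriched ones of all members. RBM48 reached 73.1-fold, RBM12B 55.5-fold, RBM6 48.9-fold and RBM27 41.6-fold. These 4 peaks stood at -1.76, 0.18, 0.70 and 1.19 per the authors' deposited table, with FDRs of 0.24, 0.54, 0.098 and 0.46. RBM20, the muscle splicing regulator of titin, had 3 peaks between -1.67 and -0.09 per the authors' deposited table, none called.

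**Figure D2:**
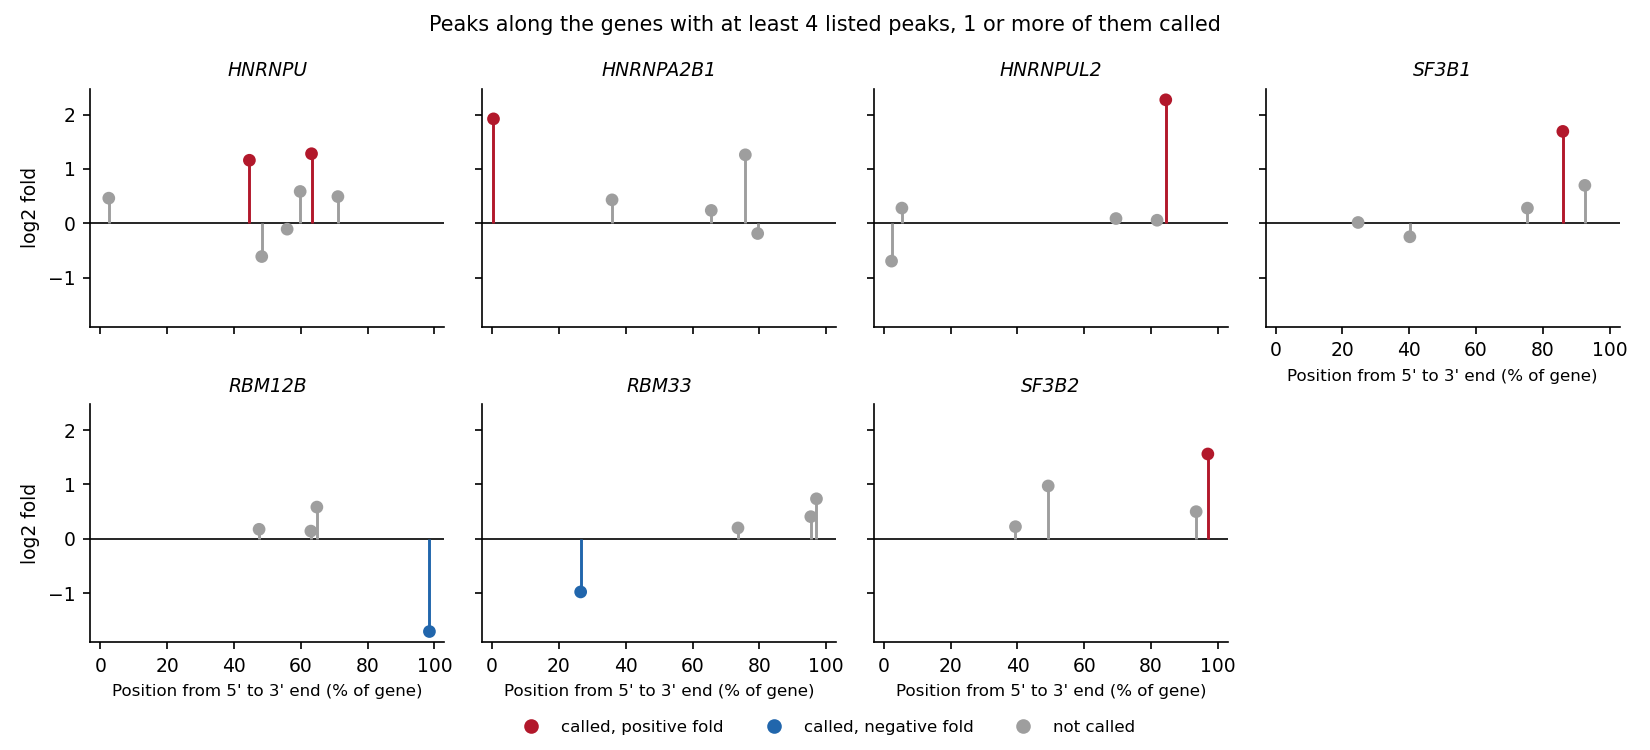
Each panel is 1 of the 7 genes with at least 4 listed peaks of which 1 or more was called; the x axis is the position of the peak's centre from the annotated 5′ to the 3′ end (% of the gene, introns included) and the y axis the authors' log2 fold. In RBM33 the called peak (-0.97) is the one nearest the 5′ end, in HNRNPA2B1 it is at the start (1.92), and in SF3B2 it is the last (1.56); 1 HNRNPA2B1 peak outside the annotated gene is not drawn.

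Of 61 member genes with at least 2 peaks, 34 had folds of both signs (55.7%), near the 59.6% of all 5812 such genes in the list. Both called and uncalled peaks occurred in 18 member genes (29.5%), against 16.9% of all such genes. In 7 of those 18 genes the most significant peak was a called one, as in RBM33, HNRNPUL2 and RBM23. In the others it was not, as in SF3B2, U2AF2 and HNRNPC. The matching count over all such genes was not taken, so whether members differ in this was not tested. PRPF8, SF3B3 and RBM22 had all their peaks called with 1 sign, and HNRNPU was the other gene with 2 calls.

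The position of member peaks was set against that of all peaks through the annotated gene span, introns included. Of 194 member peaks that lay within their RefSeq gene, 22 (11.3%) were centred within 1000 bases of the 3′ end, against 22.2% of all 20688 placed peaks. The stretch from 90% to 100% of the gene held 21.1% of member peaks and 41.1% of all, and that from 0% to 10% held 16.5% of member peaks and 8.43% of all. The median position was 65.6% of the gene for members and 83.6% for all peaks. PRPF19, SRSF4, SRSF5 and RBM34 had uncalled peaks close to the 3′ end, at 327, 404, 60 and 689 bases. By family the share near the 3′ end was 21.1% for SR genes, 12.1% for RBM genes and 3.57% for hnRNP genes. Among called peaks, 6 of 31 member peaks (19.4%) lay near the 3′ end, against 33.7% of all called peaks. Gene and last-exon lengths may differ between the sets, and their part in this was not tested.

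**Figure D3:**
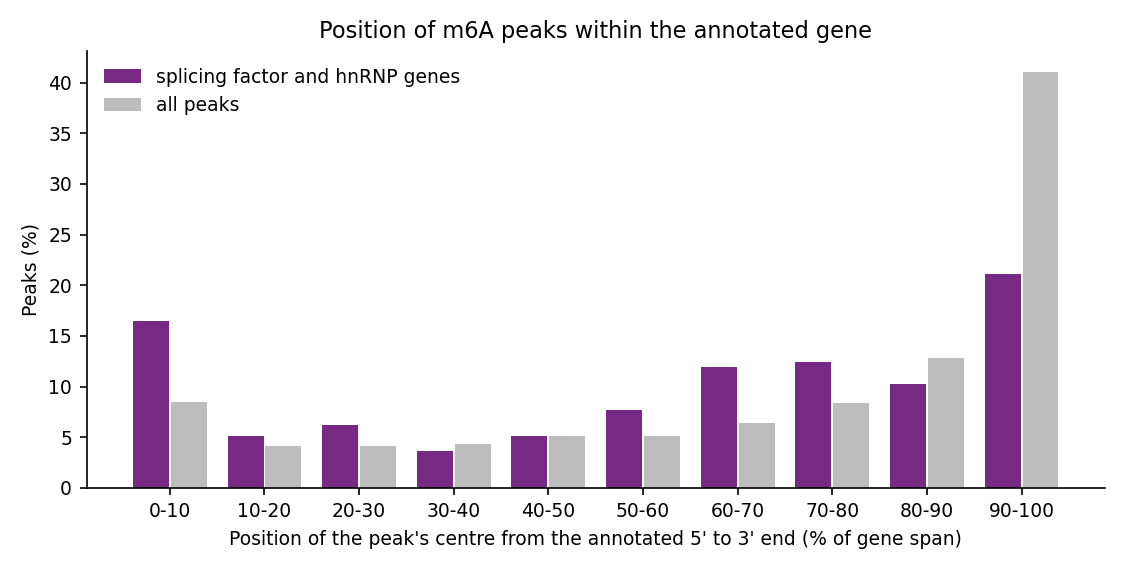
Bars give the share of peaks (y axis, %) in each 10% of the annotated gene span (x axis), for 194 peaks on splicing factor and hnRNP genes and for all 20688 placed peaks. The last bin, from 90% to 100%, holds 21.1% of the member peaks and 41.1% of all peaks.

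Member peaks also spanned exon junctions in 91 cases (46.0%), where 30.4% of all peaks did, at the same median exonic length of 300 bases. The RBM33 and HNRNPD peaks of 4 blocks and the PRPF8 and PRPF3 peaks of 3 are examples. Enrichment had a median of 6.22-fold over members (quartiles 3.31 and 12.6) and 10.1-fold over all peaks. With the most significant peak of each gene alone, the medians were 9.98-fold for members and 11.6-fold for all genes. Over all member peaks, the median was lowest for SF3 genes, at 3.05-fold, and hnRNP genes, at 3.94-fold, and highest for RBM genes, at 11.9-fold. The lowest single peaks were those of SRSF3 (1.46-fold), SF3A1 (1.55-fold), HNRNPA2B1 (1.72-fold), HNRNPU (1.79-fold) and SF3B1 (1.87-fold).

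Called shares moved with peak strength in members and in the whole list alike, so the 2 were compared within classes. Below a log10 peak p of -100, 8 of 18 member peaks were called (44.4%), against 28.1% of all peaks. Between -100 and -30 the shares were close, with 7 of 38 member peaks called (18.4%, against 16.5%). Between -30 and -10 it was 7 of 48 (14.6%, against 9.53%), between -10 and -5 7 of 46 (15.2%, against 4.11%), and above -5 2 of 48 (4.17%, against 1.29%). By enrichment, 9 of 35 member peaks under 3-fold were called (25.7%, against 19.6% of all), and 4 of 23 of those at 20-fold or more (17.4%, against 5.06%). Those 4 called peaks are on RBM7, RBM22, RBM33 and RBMXL1. The share was above that of all peaks in each of the 10 classes, a description of few peaks per class with no test.

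**Figure D4:**
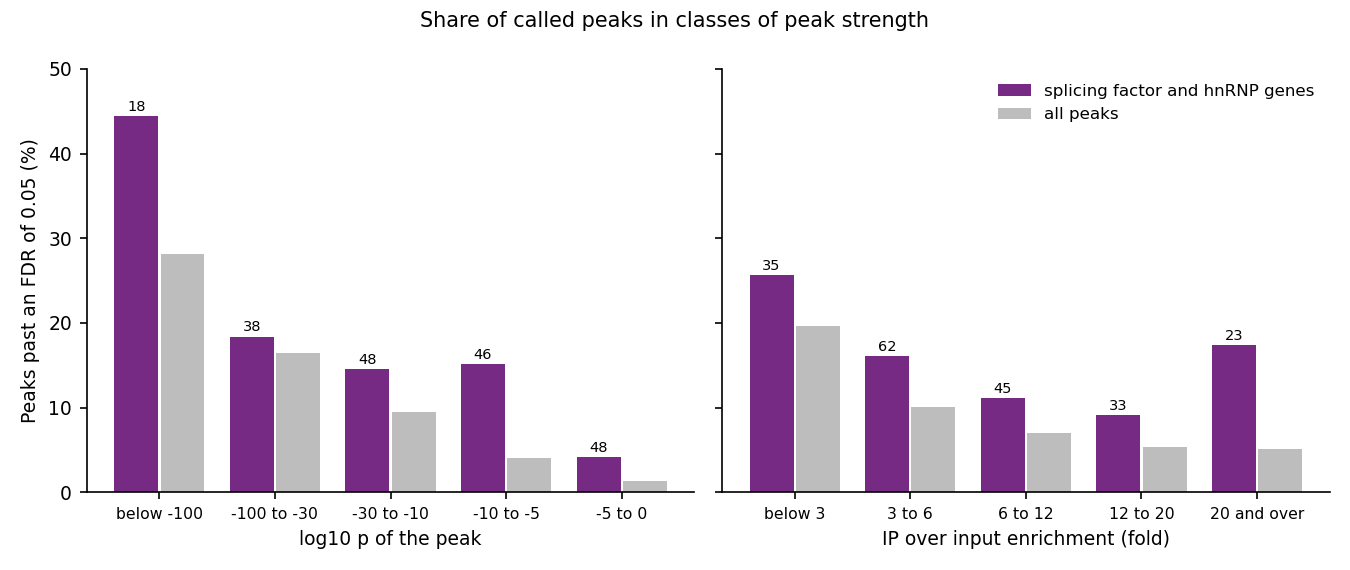
Bars give the share of peaks past an FDR of 0.05 (y axis, %) in 5 classes of the peak's log10 p (left) and of IP over input enrichment (right), for splicing factor and hnRNP genes and for all peaks; numbers over the bars count member peaks. The gap is widest in the class below -100, at 44.4% against 28.1%.

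Some large folds were not called. Of the member peaks, 32 had a log2 fold of at least 1 in size and no call. Called member peaks with a log2 fold under 1 in size numbered 9. The matching counts over all peaks were not taken, so whether members differ from the whole list in this was not tested. The largest uncalled positive folds per the authors' deposited table were those of SRSF5 (2.45), HNRNPL (2.43), PRPF19 (1.81), HNRNPA1L2 (1.71) and RBM34 (1.6). The largest uncalled negative ones per the authors' deposited table were those of HNRNPLL (-3.58), RBM27 (-2.08), SRSF10 (-1.78), RBM48 (-1.76) and RBM20 (-1.67). The positive ones were all on weak peaks, with log10 peak p of -5.11, -5.59, -6.99, -4.41 and -6.4 in the order given. For the negative ones these were -2.39, -11.6, -5.26, -57.3 and -6.29, so the HNRNPLL peak was the weakest of those listed.

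**Figure D5:**
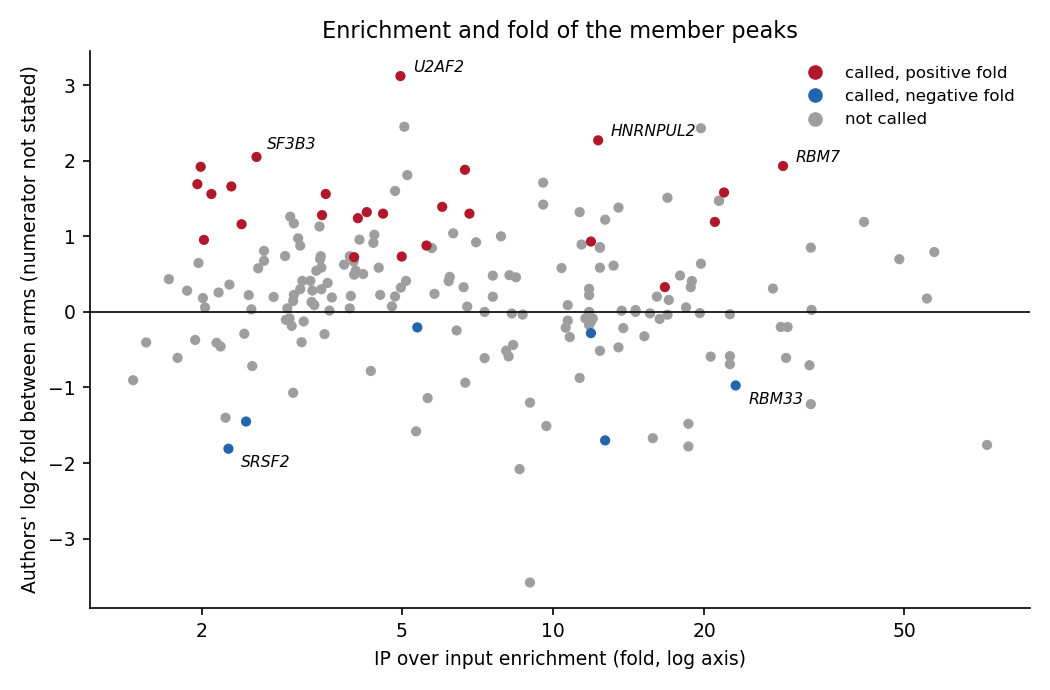
Each point is 1 of the 198 peaks, with IP over input enrichment on the x axis (log axis) and the authors' log2 fold between the arms on the y axis. Called peaks occur from 1.96-fold to 28.7-fold enrichment, and the peaks above 30-fold are uncalled.

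Other splicing genes, outside the name rule, had a called share between that of the members and that of the whole list. Of 74 genes named for this purpose 60 had peaks, and 19 of their 148 peaks were called (12.8%, against 8.23% of all peaks). Of these calls 13 were positive (8.78% of the 148, against 5.74% of all peaks) and 6 negative (4.05%, against 2.49%). The negative share was above that of the members as well (3.03%). The folds given below are those of called peaks, and most of these genes also had uncalled ones. SRRM2, a large nuclear speckle protein gene, had called peaks at 0.64 (FDR 2.8e-08), 0.60 (FDR 6.0e-08) and -0.37 (FDR 0.040) per the authors' deposited table. Its uncalled peaks stood at -1.07, -2.07 and -0.51 per the authors' deposited table. The negative SRRM2 call was lost with p doubled (FDR 0.080). KHSRP likewise had called peaks of both signs, at 1.26 (FDR 5.0e-06) and -0.72 (FDR 0.017) per the authors' deposited table. Its uncalled ones ran between -0.65 and 0.56 per the authors' deposited table. EFTUD2, the U5 GTPase that works with PRPF8, stood at 1.47 (FDR 0.0030), beside uncalled peaks of -0.47 and 0.80 per the authors' deposited table. PTBP1, the repressor that binds pyrimidine tracts, had a weakly enriched called peak (1.69-fold) at 1.68 (FDR 0.00020) per the authors' deposited table. A far more significant PTBP1 peak (log10 peak p of -103) was uncalled, at 0.33 per the authors' deposited table. SF1, which binds the branch point before the SF3 complexes do, stood at -0.99 (FDR 0.0049) per the authors' deposited table. Its uncalled peaks ran between -0.84 and -0.13 per the authors' deposited table. Among the kinases of SR proteins, CLK2 stood at 1.12 (FDR 0.036) and CLK3 at 1.5 (FDR 0.0046) per the authors' deposited table. Their uncalled peaks stood at -0.52 for CLK2 and -0.27 for CLK3 per the authors' deposited table. The CLK2 call was lost with p doubled (FDR 0.072) or recentred (FDR 0.078). The paraspeckle genes PSPC1 and NONO stood at 2.49 (FDR 0.0028) and 0.79 (FDR 0.0034) per the authors' deposited table. That PSPC1 peak was weak (log10 peak p of -3.66), and the most significant PSPC1 peak was uncalled, at -0.56 per the authors' deposited table. SON, the core speckle protein gene, stood at 0.46 (FDR 4.7e-06), beside uncalled peaks between -1.82 and 0.66 per the authors' deposited table. The other called genes of this list were LSM4, SUGP2 and SYNCRIP with positive folds and CIRBP, LSM7 and PCBP1 with negative ones, between -1.72 and 1.18 per the authors' deposited table. With p doubled the LSM7 and PCBP1 calls were lost as well, at an FDR of 0.058 each.

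Some member peaks cannot be given to 1 gene. In all, 30 of them (15.2%, against 15.7% of all peaks) share at least 1 base with a peak of another gene, and the 198 peaks merge into 192 loci. RBM14 and RBM14-RBM4 list the same peak, with a log2 fold of 1.47 (FDR 0.49) per the authors' deposited table. HNRNPA1L2 is a close copy of HNRNPA1, so its uncalled peak is uncertain as well.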

How the data were processed

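The deposited list gives each peak's position, exon blocks, gene and the authors' values. The submitters' processing notes list HOMER 4.9.1, BWA 0.7.12 and GRCh38 without their roles. The sources used here do not name the peak caller. Per the file headers, the authors give a p-value per peak, its log10 and FDR, a fold enrichment (a linear ratio), and for the comparison of the arms a log2 fold with the log10 of its p and FDR. No values per library were used, so the planned edgeR test was not run. Members and lists were chosen with earlier results of these data known.

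Calls used the deposited FDR under 0.05. Alternatives were an FDR under 0.01, the p alone under 0.05, p doubled and adjusted again by Benjamini-Hochberg over all peaks, and the median log2 fold (0.14) subtracted. For the last, each standard error was implied by fold and one-sided p where p was under 0.3, and otherwise taken from peaks of like peak p. The adjustment and recentring were run on simulated data with p doubled before adjustment. The recentred FDRs given here were adjusted without that doubling, so the simulation does not check them. Positions and start windows came from the RefSeq gene and promoter tables (GRCh38.p14), matched by symbol; 80 of 92 genes had a window, and in 71 of these 80 its start was that of the gene table. Coordinates are 1-based. Named genes are those with a called peak, the gene with most peaks in each family, the 5 most and least enriched peaks, the 5 largest uncalled folds of each sign and a set of well-known members; other genes named were chosen after their values were seen. Python 3.11.15, pandas 2.3.3 and scipy 1.17.1 were used. A result that the named-genes rule would add is not reported here.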

Additional observations from a re-analysis of the deposited data

How the results depend on the processing

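No paired analysis was possible because the columns carry no value per replicate, and no library could be left out. An FDR under 0.01 left 16 member calls (14 positive, 2 negative), and the p alone under 0.05 gave 56 (44 and 12), where 19.9% of all peaks passed. With p doubled 22 remained, 3 of them negative. Of the 31 calls, 15 passed at an FDR of 0.01, with p doubled and recentred alike, 9 were lost with p doubled, 7 once recentred and 15 at 0.01. Recentring added SRSF3 and RBM12, both negative. The median log2 fold of 0.25 was 0.27 without the 30 peaks that share bases with another gene's peak, 0.31 without peaks weaker than a log10 p of -10, and 0.19 with 1 peak per gene (0.14 over all genes with 1 peak per gene). The median enrichment of 6.22-fold was 5.78, 8.30 and 9.98 in these settings, against 11.6-fold over all genes with 1 peak per gene. Without shared peaks 28 member calls remained (24 positive, 4 negative), and without weak peaks 22 (18 and 4). Fewer peaks were counted there and the matching shares over all peaks were not taken, so these counts say nothing about members against the whole list. Near the 3′ end lay 5.15% of placed member peaks within 500 bases and 19.1% within 2000, and the median position without shared peaks was 68.6%. The cause of these shifts was not tested.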
